A study of Mus musculus with 12 samples.

Results

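Lungs of mice with acute injury that were treated with MSC were compared with lungs of injured mice that were not. The comparison used the 3 libraries labelled MSC and the 3 labelled ALI, 6 of the 12 libraries in the series. Its genes were all those that passed a filter on low counts in these 6 libraries, 21464 of the 38349 in the deposited table. ALI marks whole lung injured by hypoxia together with LPS (lipopolysaccharide, a component of the bacterial outer membrane), and MSC marks lung with the same injury treated with MSCs. Both groups therefore carry the injury, and both are wild type by their labels. The 3 libraries of the uninjured group, labelled Control, are quoted as levels beside the result and were not tested here. The labels give no strain, age, dose, time point, cell source or route of delivery, and do not spell out the abbreviation MSC. Whether the replicates of a group are different animals is not stated, and the p-values therefore cover only the variation among libraries, part of which may be technical. That variation was estimated within the groups of all 12 libraries, so the Control libraries and those labelled tpMSC also entered it. In RNA from whole lung, fewer cells of a type and less RNA per cell cannot be told apart.

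LPS is carried by CD14 to the receptor TLR4, which signals through MyD88 to the transcription factor NF-kB. NF-kB switches on cytokines, chemokines and adhesion molecules, and also its own inhibitors, such as IkB-alpha (encoded by Nfkbia) and A20 (encoded by Tnfaip3), which end the response. The chemokines Cxcl1 and Cxcl2 attract neutrophils, and selectins on endothelium catch rolling leukocytes. The alveolus that neutrophils enter is built of capillary endothelium, type 1 and type 2 epithelial cells, fibroblasts that lay down elastin and collagen, and resident alveolar macrophages.

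Most NF-kB genes fell together, and of the chemokines Cxcl1, Cxcl2 and Cxcl3 not all did, so 7 of their promoter stretches are printed for comparison. Of the 21 NF-kB genes, 18 had a promoter in the RefSeq table (build GRCm38.p6), with 24 promoters in all. In the 250 bases before the start site, read on both strands, the kappaB consensus was found in 12 of those 24 promoters (50.0%). The same consensus was found in 7.25% of all 32851 promoters and in 8.94% of the promoters of tested genes. A match is a description of letters, not evidence of binding. Each stretch below runs 5′ to 3′ on the strand of the gene and shows the match nearest the start site with up to 30 bases on each side. Capitals mark the match, with overlapping matches joined. The windows lie on GRCm38.p6 at chr12:55492648-55492706 (minus strand) for Nfkbia, chr7:30422195-30422264 (plus) for Nfkbid, chr11:54962957-54963028 (minus) for Tnip1, and chr11:23771021-23771091 (minus) for Rel. Those of the chemokines lie at chr5:90891144-90891214 for Cxcl1, chr5:90903772-90903842 for Cxcl2 and chr5:90785998-90786068 for Cxcl3, all on the plus strand.
Nfkbia: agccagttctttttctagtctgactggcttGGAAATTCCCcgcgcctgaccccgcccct
Nfkbid: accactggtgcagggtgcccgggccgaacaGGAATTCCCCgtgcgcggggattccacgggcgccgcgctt
Tnip1: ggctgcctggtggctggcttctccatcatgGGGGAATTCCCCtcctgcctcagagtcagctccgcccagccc
Rel: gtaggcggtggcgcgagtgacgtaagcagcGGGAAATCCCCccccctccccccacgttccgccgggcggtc
Cxcl1: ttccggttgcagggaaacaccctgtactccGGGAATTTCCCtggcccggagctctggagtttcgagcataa
Cxcl2: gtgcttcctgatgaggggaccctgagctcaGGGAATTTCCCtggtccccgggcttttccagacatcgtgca
Cxcl3: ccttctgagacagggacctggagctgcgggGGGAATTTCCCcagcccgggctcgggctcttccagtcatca
The 3 chemokine promoters hold the same 11 letters, ending 60, 86 and 62 bases before the start sites of Cxcl1, Cxcl2 and Cxcl3. The levels of these 3 genes did not move together, as given below.

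The 6 libraries held 53083002 to 70209229 counts each. The defining epithelial genes of lung were abundant in each library. The surfactant protein gene Sftpc ran from 3412 to 7911 FPKM (fragments scaled for gene length and library depth), and the club cell gene Scgb1a1 from 7170 to 15258. Replicates of a group correlated at 0.975 to 0.981 in ALI and at 0.964 to 0.977 in MSC (Pearson's r of log2 CPM, counts scaled to library size, across genes, which are not independent replicates), with the lowest values in pairs that include MSC replicate 3. On the first principal component of the 6 libraries (33.5% of the variance) the ALI libraries lay at -45.1, -37.8 and -44.9 and the MSC libraries at 57.6, 46.7 and 23.5. On the second (24.1%), MSC replicate 3 lay at 78.2 and the other 5 between -38.5 and 2.1. MSC replicate 3 differed more than 2-fold from the mean of the other MSC libraries in 1941 genes, against 1581 for MSC replicate 1 and 1906 for MSC replicate 2. For this reason the counts over gene lists are also given without MSC replicate 3. Of the 138 called genes named here, 131 were also called without it, the exceptions being Rela, Tlr2, Sftpc, Pf4, Itgam, Cycs and Ncf1, whose adjusted p-values are given where they are described. The largest rises and falls were named only if called in each fit that left out a library, so part of that count was fixed by the choice. Among all 2391 called genes, 1769 were also called without MSC replicate 3.

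Treatment with MSC was accompanied by lower transcripts of many inflammatory genes and higher transcripts of some genes of vessel wall and stroma. In edgeR's quasi-likelihood test, 2391 of 21464 genes (11.1%) were called at a Benjamini-Hochberg adjusted p under 0.05, of which 1172 (5.46%) were higher and 1219 (5.68%) were lower in MSC than in ALI. These shares are the background for every count of list members below. Changes of at least 2-fold were more often downward, with 392 genes lower (1.83%) and 269 higher (1.25%), and at least 4-fold changes numbered 102 lower and 54 higher. The median log2 fold change of all tested genes was 0.015. Without MSC replicate 3, 2237 genes were called (10.4%), 1093 higher (5.09%) and 1144 lower (5.33%), and 1769 genes were called in both fits. Calls held in each of the 6 fits that left out 1 library for 933 genes, 368 higher and 565 lower. With DESeq2 the count was 3588, and with a fit to these 6 libraries alone it was 1221, 425 higher and 796 lower. It was 1156 without ALI replicate 1, 1307 without ALI replicate 3 and 1174 without MSC replicate 1.

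**Figure D1:**
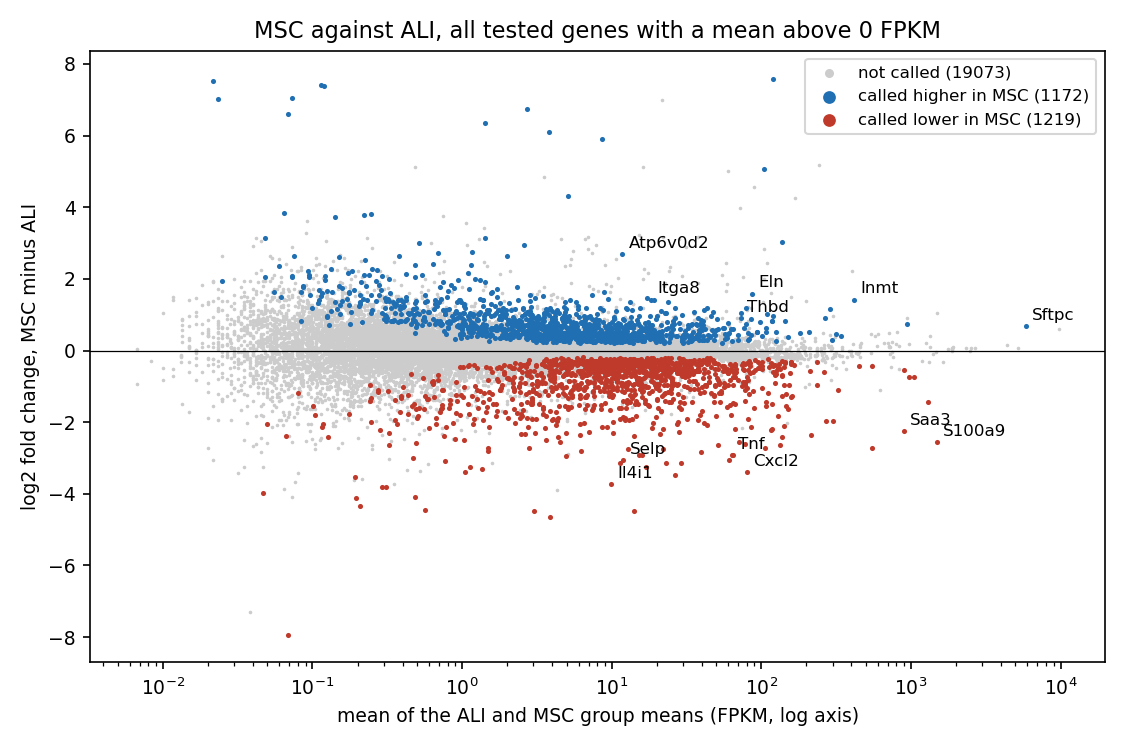
Each point is a tested gene, with the mean of the ALI and MSC group means on the x axis (FPKM, log axis) and the log2 fold change of MSC against ALI on the y axis. The 1172 genes called higher are blue, the 1219 called lower are red, and cytokine, neutrophil and adhesion genes such as Il4i1, Cxcl2 and Selp lie at the lower edge.

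The largest falls and rises are given for genes that reached a mean level of 10 FPKM in either group, had no overlap between groups and were called in each of the 6 fits that left out a library, so the separation of their groups was fixed by the choice. By the size of the fall, the leading genes of that kind were mostly immune. Il4i1, an enzyme that breaks down aromatic amino acids in myeloid cells, was at 23.1, 14.7 and 17.8 FPKM in ALI and at 1.27, 1.11 and 1.9 in MSC (log2 fold change -3.73 ± 0.58 SE, edgeR adjusted p = 0.00244). Ifitm6, a membrane protein of myeloid cells, was at 44.4, 57.9 and 42.8 FPKM in ALI and at 4.39, 2.93 and 6.08 in MSC, an 11.1-fold lower mean fit (adjusted p = 0.000158). The rest of the 15 largest falls were the chemokine Cxcl2, the stefins and stefin-like inhibitors Stfa2, Stfa3, Cstdc5 and Cstdc6, the receptors Mrgpra2a and Mrgpra2b, Trem1, the cytokines Csf3, Il36g and Tnf, P-selectin (Selp) and the small GTPase Rhov. The stefins, the Cstdc genes and the Mrgpra2 genes have near-identical copies among which reads may be divided, so their single values are uncertain.

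By the size of the rise, the leading genes chosen in the same way were mostly stromal genes with smaller folds. Atp6v0d2, a proton pump subunit of macrophages, was first among them with 2.81, 3.27 and 3.20 FPKM in ALI and 15.1, 39.2 and 7.25 in MSC (log2 fold change 2.68 ± 0.45 SE, edgeR adjusted p = 0.00389). Adamtsl2, a secreted matrix protein, was at 3.35, 5.90 and 3.37 FPKM in ALI and at 12.3, 13.7 and 14.7 in MSC (1.64 ± 0.23 SE, adjusted p = 0.00157). The MSC libraries were close together for Adamtsl2 and far apart for Atp6v0d2. Chil3 and Csf2ra, given with the macrophages, were called with larger fitted rises, but their groups overlapped. The other 13 were Abca8a, Pcolce2, Fgfr4, Itga8, Vegfd, Dpep1, Slc7a10, Wfdc1, Tcf21, Mamdc2, Ccn5, Efemp1 and Clec3b, with log2 fold changes below that of Adamtsl2. Lyz2, one of the 10 genes of highest mean level and the lysozyme of macrophages, stood at 4078 ± 566 FPKM in ALI and 4659 ± 380 in MSC (SD, n = 3 each, log2 fold change 0.14, edgeR adjusted p = 0.5).

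The first step of the response, LPS sensing, was lower in part. Of 14 sensing genes, 6 fell (background 5.68%), with a median log2 fold change of -0.43, and 5 fell without MSC replicate 3. Cd14, the LPS carrier (ENSMUSG00000051439), was at 406, 449 and 436 FPKM in ALI and at 90.0, 150.3 and 103 in MSC, against a Control mean of 10.8. All MSC libraries were far below all ALI libraries (log2 fold change -1.96 ± 0.28 SE, edgeR adjusted p = 0.00182, 0.00702 without MSC replicate 3). Myd88, the adaptor of the receptor, was at 58.5, 50.1 and 59.0 FPKM in ALI and at 26.3, 31.5 and 29.4 in MSC (-0.99 ± 0.16 SE, adjusted p = 0.00265). The kinases Map3k8 and Irak2 fell as well, with log2 fold changes of -1.03 and -0.80. Tlr4 itself was at 10.5 ± 0.682 FPKM in ALI and 8.47 ± 1.05 in MSC (SD, n = 3 each) and did not pass the test (adjusted p = 0.0733). Tlr2 was called (-1.19, adjusted p = 0.0271), but not without any 1 of 5 libraries, MSC replicate 3 among them (adjusted p = 0.0622 to 0.105), the exception being MSC replicate 2.

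The NF-kB subunits and the genes that inhibit NF-kB fell together. Of the 21 listed, 18 fell and the other 3, Tnip2, Irak3 and Cyld, did not pass the test. The median log2 fold change was -1.02 (0.015 over all tested genes), and the count without MSC replicate 3 was also 18, with Tnip2 in place of Rela. Nfkbia (chromosome 12, 55489410 to 55492647, GRCm38) was at 208, 239.9 and 214 FPKM in ALI and at 90.1, 105 and 83.9 in MSC, with a Control mean of 53.8. Each MSC library was below each ALI library (log2 fold change -1.30 ± 0.16 SE, edgeR adjusted p = 0.000868). Nfkbid, a nuclear IkB protein, was at 13.1, 14.1 and 16.5 FPKM in ALI and at 4.71, 4.34 and 5.33 in MSC (-1.65 ± 0.17 SE, adjusted p = 0.00034). Zfp36, a protein that destroys cytokine mRNA, was at 64.1, 79.0 and 64.8 FPKM in ALI and at 25.7, 23.6 and 30.6 in MSC (-1.43 ± 0.16 SE, adjusted p = 0.000435), near its Control mean of 23.4. Tnfaip3, a ubiquitin-editing enzyme, was at 36.2, 44.0 and 44.98 FPKM in ALI and at 14.6, 17.6 and 11.5 in MSC (adjusted p = 0.00534), above its Control mean of 3.80. Among the subunits, Rel and Nfkb2 fell, with log2 fold changes of -1.02 and -0.95. Rela, the main activating subunit, stood at 34.6 ± 2.77 FPKM in ALI and 28.0 ± 0.989 in MSC (SD, n = 3 each), and its fall of 0.35 (adjusted p = 0.022) was not called without MSC replicate 3 (adjusted p = 0.0557), ALI replicate 1, ALI replicate 3 or MSC replicate 1 (0.0613 to 0.0894).

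The cytokines that this pathway makes were among the deepest falls. Tnf (chromosome 17, 35199381 to 35202007), the founding cytokine of its family, was at 97.1, 116 and 122 FPKM in ALI and at 15.2, 17.0 and 13.9 in MSC, against 0.687 in Control. The groups stood far apart and the MSC libraries close together (log2 fold change -2.91 ± 0.42 SE, edgeR adjusted p = 0.00182, 0.00692 without MSC replicate 3). Of 12 genes of TNF and its receptors 8 fell, 7 without MSC replicate 3 and 5 without ALI replicate 3, and the receptor Tnfrsf1b went from 93.9 ± 7.85 to 35.1 ± 7.81 FPKM (SD, n = 3 each, adjusted p = 0.00194). Il1b, the main secreted interleukin of the inflammasome, was at 319, 346 and 408 FPKM in ALI and at 67.4, 83.7 and 65.0 in MSC (-2.36 ± 0.31 SE, adjusted p = 0.00113). Il36g, an epithelial cytokine of the same family, was at 99.8, 135 and 105 FPKM in ALI and at 15.1, 15.1 and 16.2 in MSC, almost the same value in each MSC library (-2.92 ± 0.38 SE, adjusted p = 0.000995). Of 14 interleukin 1 family genes 8 fell, also 8 without MSC replicate 3, and they included Il33 and the receptor subunits Il1r1 and Il1rap. Il1a, the membrane-bound member, did not pass the test, with 22.6, 32.4 and 29.6 FPKM in ALI and 26.4, 33.9 and 6.96 in MSC, where MSC replicate 3 alone lay below the ALI range.

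Cytokines of the interleukin 6 and colony-stimulating families followed. Il6 was at 15.0, 14.0 and 21.8 FPKM in ALI and at 2.37, 2.84 and 5.36 in MSC (log2 fold change -2.30 ± 0.39 SE, edgeR adjusted p = 0.00362). Lif, Osm and the receptor Osmr fell too (log2 fold changes of -2.07, -1.91 and -0.98), 4 of 12 members falling in all, while the receptor chains Lifr and Il11ra1 rose by 0.63 and 0.40. Lifr lost its call without ALI replicate 1 (adjusted p = 0.0544) and Il11ra1 without any 1 of the libraries other than MSC replicate 3 (0.0692 to 0.149). Without MSC replicate 3, 5 of the 12 fell and 2 rose. Csf3, the growth factor of neutrophils (chromosome 11, 98701263 to 98703629), was at 19.1, 15.5 and 26.5 FPKM in ALI and at 1.74, 2.59 and 2.79 in MSC, a fitted mean 8.81-fold lower (adjusted p = 0.00179). Csf2, which acts on granulocytes and macrophages, and Csf1, a growth factor of macrophages, fell with log2 fold changes of -1.45 and -0.94, and Csf1r, the receptor of Csf1, stood at 35.0 ± 5.13 FPKM in ALI and 32.8 ± 6.15 in MSC (SD, n = 3 each, adjusted p = 0.626). Of 9 members of this family 4 fell (Csf3, Csf2, Csf1 and the receptor Csf3r) and 1 rose (Csf2ra, given with the macrophages), with the same counts without MSC replicate 3. Csf2ra was not called without any 1 of the other 5 libraries (adjusted p = 0.053 to 0.104).

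The neutrophil-attracting chemokines did not fall as a block. Cxcl1 was at 230.5, 228 and 232 FPKM in ALI and at 29.0, 28.0 and 58.1 in MSC (log2 fold change -2.63 ± 0.40 SE, edgeR adjusted p = 0.00207). Cxcl2 was at 119.7, 171 and 148 FPKM in ALI and at 14.0, 18.4 and 10.3 in MSC (-3.40 ± 0.38 SE, adjusted p = 0.000448). The groups were separate in Cxcl1, and MSC replicate 3 was the highest MSC library there and the lowest for Cxcl2. Cxcl3, whose promoter holds the same kappaB match, was at 12.8, 9.66 and 12.99 FPKM in ALI and at 18.0, 36.6 and 4.07 in MSC. The MSC libraries lay on both sides of the ALI libraries, and the gene did not pass the test (0.68 ± 0.56 SE, adjusted p = 0.5; 0.0649 without MSC replicate 3). Cxcl5, made by alveolar epithelium, was at 249.1, 181 and 278 FPKM in ALI and at 31.4, 40.5 and 106 in MSC, which missed the threshold with all 6 libraries (adjusted p = 0.0537) and passed it without MSC replicate 3 (adjusted p = 0.0216). These genes are near-identical neighbours in part, so a small share of reads may be exchanged between them. Of 7 neutrophil chemokines 3 fell in all, the third being Pf4, which platelets carry. The count was also 3 without MSC replicate 3, with Cxcl5 in place of Pf4 (adjusted p of Pf4 = 0.0934).

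Of 16 CC chemokines, which act on monocytes and lymphocytes, 4 fell and 1 rose (Ccl21a, made by lymphatic vessels). The shares of all tested genes were 5.68% and 5.46%, so the 1 rise is near the background. Ccl4 was at 77.4, 92.5 and 95.7 FPKM in ALI and at 13.3, 17.1 and 13.6 in MSC (log2 fold change -2.64 ± 0.33 SE, edgeR adjusted p = 0.000861). Ccl2, Ccl3 and Ccl20 fell (log2 fold changes of -2.08, -2.10 and -1.62), but each lost its call without ALI replicate 1, ALI replicate 3 or MSC replicate 1 (adjusted p = 0.0514 to 0.0859), and Ccl3 also without ALI replicate 2. The count of members that fell was then 1 in each of those 3 fits, and Ccl21a lost its call in the same 3 (0.112 to 0.13). Without MSC replicate 3, the number that rose was 4 in place of 1. Ccl6, a chemokine of resting macrophages, was at 44.0, 39.2 and 45.8 FPKM in ALI and at 100.3, 277 and 20.2 in MSC, so that MSC replicates 1 and 2 were above and MSC replicate 3 below every ALI library (adjusted p = 0.119 with it and 0.00256 without it). Of 16 chemokine receptors 7 fell (6 without MSC replicate 3 and 4 without MSC replicate 1), led by the atypical receptor Ccrl2 and by Cxcr2, which binds the neutrophil chemokines.

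**Figure D2:**
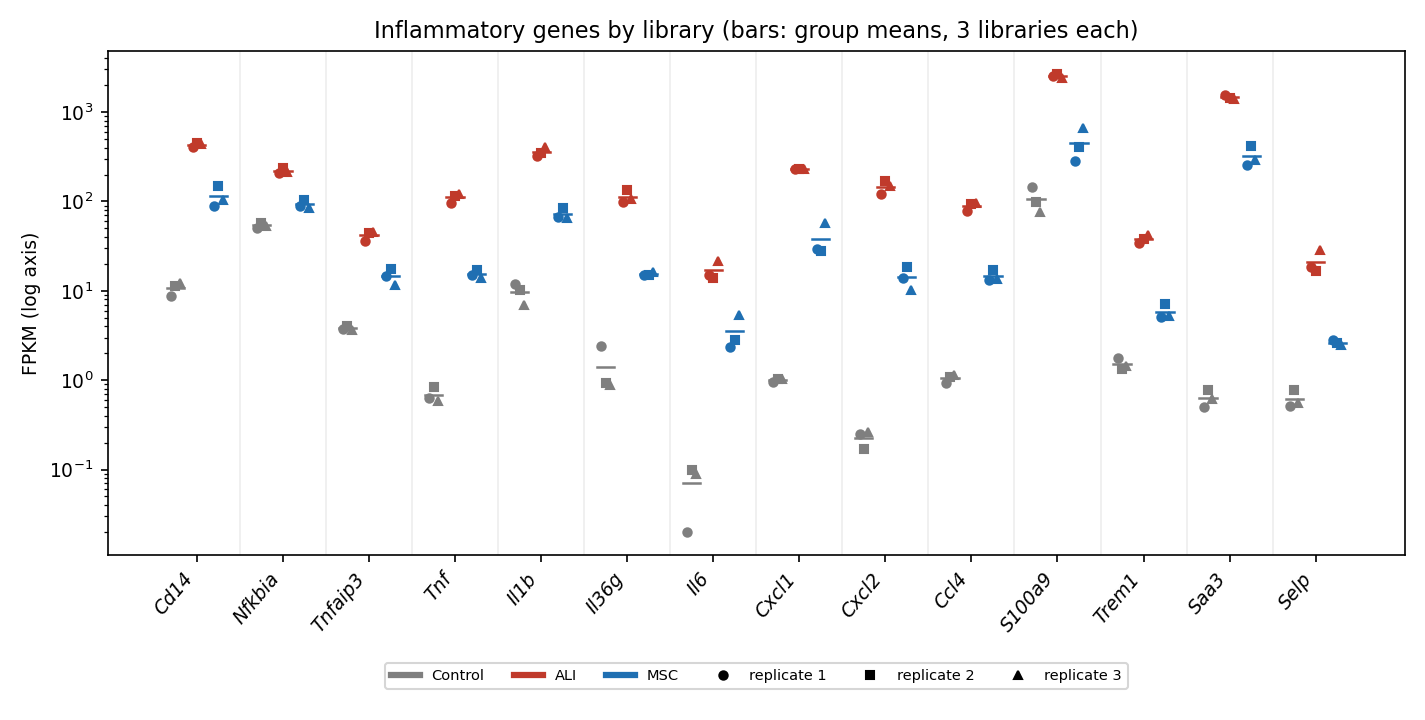
Points are single libraries (FPKM, log axis) of Control, ALI and MSC for 14 inflammatory genes, with the shape giving the replicate number and the short bar the group mean. In every gene shown, the 3 MSC libraries lie below the 3 ALI libraries and above the Control mean. The 14 were chosen from genes called lower, so the direction was fixed by the choice. Genes that overlapped, such as Cxcl3 and Il1a, are not shown.

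Transcripts of neutrophils fell nearly throughout their list. Of 26 genes of neutrophil surface proteins and secreted factors, 23 fell, with a median log2 fold change of -2.02, and 23 fell without MSC replicate 3. S100a9, a calcium-binding protein that fills the neutrophil cytosol, was at 2549, 2692 and 2394 FPKM in ALI and at 286, 406 and 656 in MSC, with 107 ± 34.7 in Control (SD, n = 3; log2 fold change -2.55 ± 0.30 SE, edgeR adjusted p = 0.000576). Trem1, a receptor that amplifies myeloid activation (chromosome 17, 48232768 to 48246924), was at 34.3, 37.8 and 42.2 FPKM in ALI and at 5.05, 7.20 and 5.26 in MSC (-2.75 ± 0.18 SE, adjusted p = 2.67e-05). Hdc, the enzyme that makes histamine, was at 28.3, 29.7 and 32.9 FPKM in ALI and at 11.0, 9.24 and 10.5 in MSC (-1.61 ± 0.10 SE, adjusted p = 1.63e-05), close to its Control mean of 9.11. In S100a9 and Hdc no MSC library reached the ALI range. Ly6g, the antigen that defines mouse neutrophils, was at 9.27, 10.3 and 6.61 FPKM in ALI and at 1.26, 0.570 and 1.64 in MSC (adjusted p = 0.00494). The formyl peptide receptors Fpr1 and Fpr2 and the whey acidic protein gene Wfdc21 were the 3 members that did not pass. Fpr2 was at 51.5, 109 and 19.3 FPKM in MSC, and MSC replicate 2 lay inside the ALI range of 86.3 to 134.

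Granule proteins, which neutrophils make while they mature in bone marrow, fell in part, and 5 of the 11 tested had a log2 fold change above 0. In the test 4 fell (Lcn2, Ngp, Mmp25 and Itgam), against 5.68% of all tested genes. The 1 that rose was Chil3, which macrophages also make, against 5.46% of all tested genes. Without MSC replicate 3 the counts were 3 and 1. Itgam lost its call without MSC replicate 3 (adjusted p = 0.104) and without any ALI library or MSC replicate 1 (0.0595 to 0.148). Chil3 lost its call without any library other than MSC replicate 3 (adjusted p = 0.0796 to 0.164). Ngp was at 8.60, 17.9 and 8.58 FPKM in ALI and at 1.5, 1.85 and 4.16 in MSC (log2 fold change -2.27 ± 0.43 SE, edgeR adjusted p = 0.00703). Ltf, the lactoferrin of granules and of airway glands, was at 12.5, 10.5 and 44.1 FPKM in ALI and at 45.8, 61.9 and 6.38 in MSC, with both groups spread widely and overlapping (adjusted p = 0.634). Its level does not follow those of Trem1 and Ly6g in the same libraries.

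Immediate early genes, transcription factors that appear within minutes of a stimulus, fell in 15 of 22 cases (15 without MSC replicate 3, median -0.88). Junb was at 148, 161 and 166 FPKM in ALI and at 51.1, 58.7 and 58.8 in MSC, an even shift of all libraries (log2 fold change -1.54 ± 0.14 SE, edgeR adjusted p = 0.000158). Ier3, a survival factor, was at 144, 162 and 151 FPKM in ALI and at 73.0, 59.8 and 72.7 in MSC (-1.20 ± 0.11 SE, adjusted p = 0.00017). Nr4a1, a nuclear receptor, was at 25.4, 28.1 and 37.0 FPKM in ALI and at 9.89, 5.41 and 7.95 in MSC (-2.01 ± 0.24 SE, adjusted p = 0.000602). For Ier3 and Nr4a1 the MSC libraries lay below the Control means of 89.2 and 17.8, a side-by-side reading that was not tested. Jund, Klf6 and Klf4 did not pass, and Jund stood at 131 ± 4.62 FPKM in ALI and 121 ± 4.54 in MSC (SD, n = 3 each). Of 17 phosphatases and signal inhibitors that end MAPK and cytokine signalling, 8 fell (9 without MSC replicate 3). Dusp5, which removes phosphate from the kinase ERK (chromosome 19, 53529109 to 53542431), had the smallest p of all tested genes. It was at 14.5, 16.1 and 14.7 FPKM in ALI and at 3.40, 3.28 and 3.92 in MSC (-2.14 ± 0.11 SE, adjusted p = 1.04e-05), with 5.40 ± 0.696 in Control (SD, n = 3). Socs3, which blocks interleukin 6 signalling, fell by 1.13 (adjusted p = 0.00287), while Socs1 and Socs2 did not pass.

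Of the interferon genes, 1 was called in edgeR on the list of stimulated genes and 0 on that of the inducible GTPases. The 15 interferon-inducible GTPases had 0 members at an unadjusted p under 0.05, 0 in DESeq2 and 5 higher in voom with sample quality weights, and the median log2 fold change was 0.56 (0.46 without MSC replicate 3, also with 0 calls). Gbp4, a guanylate-binding protein, was at 15.2, 121 and 15.8 FPKM in ALI and at 117.8, 123 and 119 in MSC. A single ALI library, replicate 2, stood at the MSC level while the other 2 stood below the Control mean of 21.1, and the log2 fold change of 1.18 carried a standard error of 0.65 (adjusted p = 0.288). Gbp7 and Iigp1 showed the same single high ALI library. Close copies exist for Gbp, Tgtp and Irgm genes, so their single values are uncertain. The 24 interferon-stimulated genes of the type I response had a median log2 fold change of -0.45 (-0.55 without MSC replicate 3), and 2 of them were above 0. In 15 of the 24 each MSC library lay below each ALI library (log2 CPM, against 13.9% of all tested genes). The 1 that fell in edgeR was Ifit3, and 2 fell without MSC replicate 3, while 8 were lower at an unadjusted p under 0.05, 7 in voom with sample quality weights and 5 in the fit to these 6 libraries alone. Ifit3 lost its call without any 1 of the other 5 libraries (adjusted p = 0.0714 to 0.105). Isg15 was at 45.6, 54.6 and 47.8 FPKM in ALI and at 19.7, 14.4 and 28.0 in MSC, without overlap but short of the threshold (adjusted p = 0.113).

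The MHC, T cell and cell cycle lists gave 0 calls in edgeR, and without MSC replicate 3 the 1 call among them was in MHC class II. For 16 MHC class I genes the count was 0 (0 at an unadjusted p under 0.05, 0 in DESeq2, 1 higher in voom), and B2m, the light chain of class I, stood at 1845 ± 127 FPKM in ALI and 1909 ± 303 in MSC (SD, n = 3 each). The edgeR count was 0 of 11 for MHC class II (1 lower at an unadjusted p, 1 lower in DESeq2, 1 lower without MSC replicate 3), 0 of 17 for T cells (0 at an unadjusted p, 0 in DESeq2) and 0 of 26 for the cell cycle (3 lower at an unadjusted p, 0 in DESeq2). The proliferation gene Mki67 was at 7.06, 10.4 and 8.57 FPKM in ALI and at 7.81, 11.3 and 8.80 in MSC, each above the Control mean of 1.94, and the groups overlapped (log2 fold change 0.05 ± 0.22 SE, adjusted p = 0.916). The complement genes C1qa and C1qb, made by interstitial macrophages, also overlapped, C1qa with 118 ± 14.8 FPKM in ALI and 121 ± 31.4 in MSC (SD, n = 3 each).

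Monocyte genes and subunits of the NADPH oxidase, the enzyme with which phagocytes make superoxide, fell in part. Of 16 monocyte genes 6 fell and 1, Chil3, rose (5 and 1 without MSC replicate 3), with a median log2 fold change of -0.87 (-0.73 without MSC replicate 3). In 10 of the 16 each MSC library lay below each ALI library, against 13.9% of all tested genes. Among those that fell, Cd14, Nr4a1 and Itgam are also on the lists of LPS sensing, immediate early or neutrophil genes. F10, coagulation factor X, and Treml4, a myeloid receptor, fell too. F10 lost its call without MSC replicate 1 (edgeR adjusted p = 0.0751). Treml4 was at 16.3, 17.9 and 21.4 FPKM in ALI and at 6.10, 7.06 and 2.65 in MSC (log2 fold change -1.86 ± 0.39 SE, edgeR adjusted p = 0.0117). Ly6c2, which marks inflammatory monocytes, overlapped, with 22.9, 39.4 and 15.3 FPKM in ALI and 36.2, 18.5 and 27.3 in MSC (adjusted p = 0.974). Of 10 oxidase genes 4 fell, Rac2, Ncf4 and Ncf1 among them, and 1 rose (Nox4, an oxidase of fibroblasts and vessel wall), with 2 and 1 without MSC replicate 3, and 2 fell without ALI replicate 1, ALI replicate 3 or MSC replicate 1. Ncf1 lost its call without MSC replicate 3 (adjusted p = 0.0544) and in those other fits (0.0561 to 0.0794). Ncf4, a cytosolic subunit, was at 61.6, 59.9 and 69.8 FPKM in ALI and at 24.96, 35.9 and 24.96 in MSC (-1.20 ± 0.21 SE, adjusted p = 0.00485). Cybb, the catalytic subunit in phagocytes, stood at 42.5, 41.6 and 44.7 FPKM in ALI and at 48.1, 99.5 and 30.9 in MSC, with MSC replicate 3 below and the others above every ALI library (adjusted p = 0.497).

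**Figure D3:**
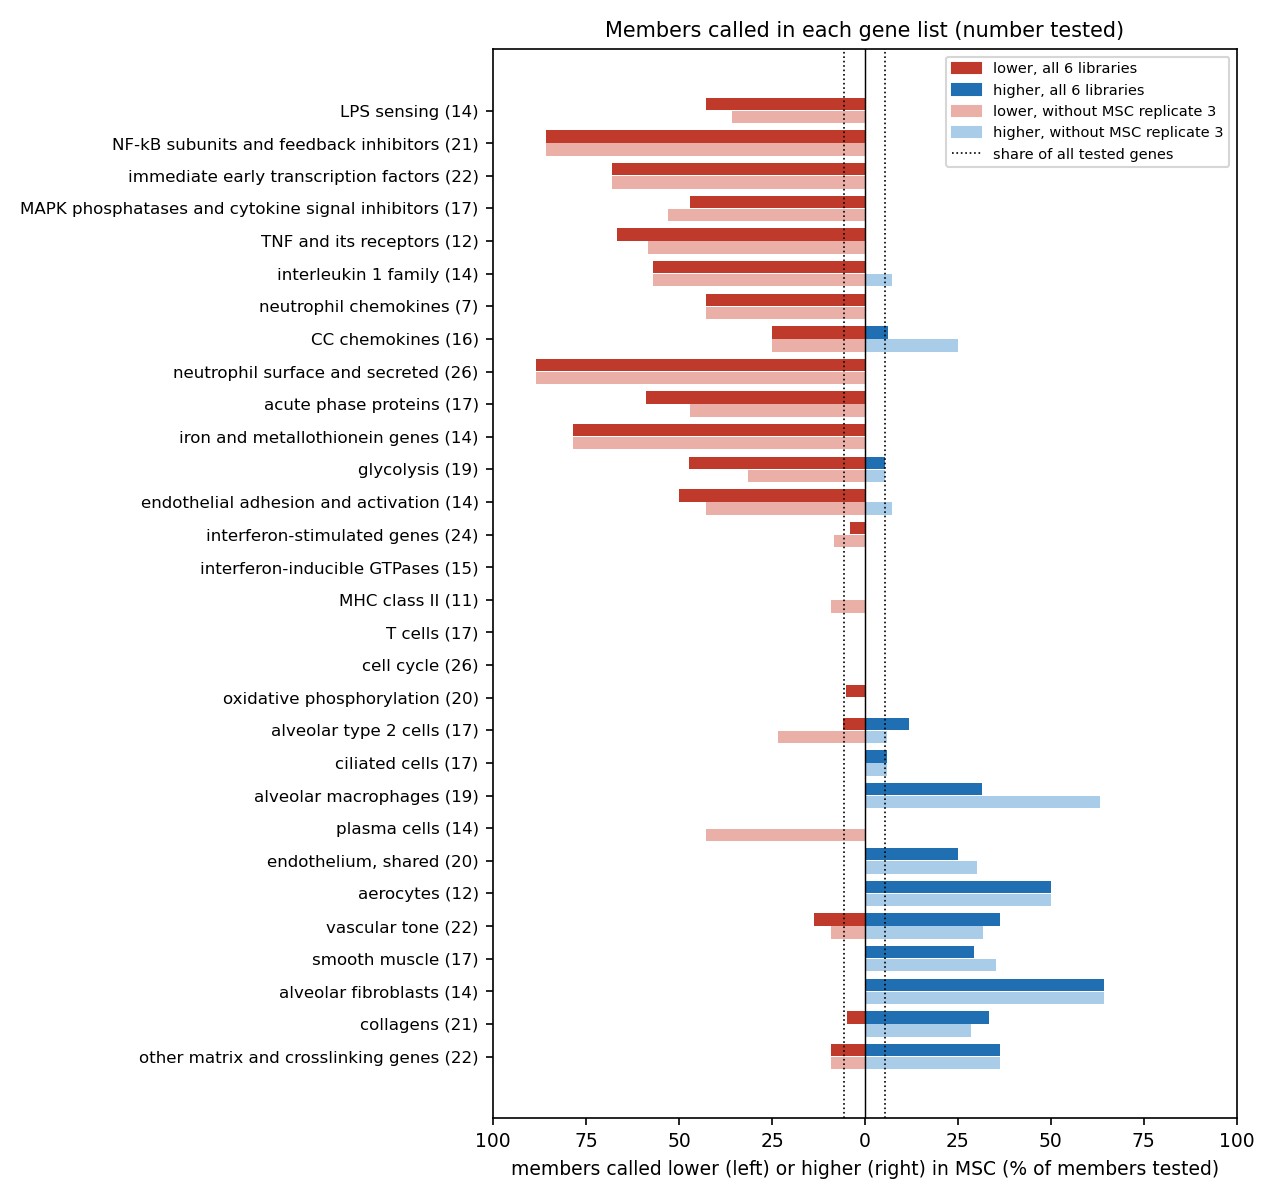
Bars give the share of tested members (% of members, number tested in brackets) called lower in MSC to the left and higher to the right, for 30 gene lists, with dark bars for all 6 libraries and pale bars without MSC replicate 3. Dotted lines mark the share of all tested genes called in each direction, 5.68% lower and 5.46% higher. Neutrophil, NF-kB and iron lists reach far to the left, fibroblast and capillary lists to the right, and the pale bars depart most from the dark ones for alveolar macrophages and plasma cells.

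Acute phase proteins, which bind microbial products and free haem or iron, fell in 10 of 17 cases (8 without MSC replicate 3, median -1.06). Saa3, a serum amyloid of inflamed lung, was at 1566, 1442 and 1418 FPKM in ALI and at 255, 413 and 291 in MSC (log2 fold change -2.25 ± 0.26 SE, edgeR adjusted p = 0.000576), with 0.627 in Control. Lcn2, which captures bacterial iron carriers, was at 1878, 2106 and 1715 FPKM in ALI and at 579.8, 877 and 701 in MSC (-1.45 ± 0.23 SE, adjusted p = 0.00266). All MSC libraries were below all ALI libraries and far above Control. Haptoglobin (Hp) and complement C3, at 977 ± 10.5 and 426 ± 46.8 FPKM in ALI and 698 ± 171 and 305 ± 47.8 in MSC (SD, n = 3 each), missed the threshold (adjusted p = 0.0505 and 0.115). Saa and Serpina3 genes have close copies, and their single values are uncertain.

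Iron and metallothionein genes fell in 11 of 14 cases, with and without MSC replicate 3 (median -1.01). Mt2, a metal-binding protein, was at 175, 179.9 and 168 FPKM in ALI and at 64.6, 76.4 and 49.5 in MSC (log2 fold change -1.50 ± 0.15 SE, edgeR adjusted p = 0.000211). The ferritin heavy chain gene Fth1, one of the most abundant nuclear transcripts here, was at 1281, 1370 and 1258 FPKM in ALI and at 708, 1034 and 653 in MSC (-0.75 ± 0.15 SE, adjusted p = 0.00856). Hmox1, which breaks down haem, was at 126, 98.7 and 111 FPKM in ALI and at 31.5, 54.3 and 45.1 in MSC (-1.40 ± 0.24 SE, adjusted p = 0.00437). The groups were apart in all 3 genes. The zinc and iron importer Slc39a14 and the phagosomal metal pump Slc11a1 fell, with log2 fold changes of -1.37 and -1.45.

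The lactate transporters Slc16a3 and Slc16a1 and the hypoxia factor subunit Hif1a fell. Slc16a3, which exports lactate, was at 20.6, 18.4 and 22.97 FPKM in ALI and at 4.50, 6.93 and 5.26 in MSC (log2 fold change -1.93 ± 0.15 SE, edgeR adjusted p = 5.07e-05). The log2 fold change of Slc16a1 was -1.46, and 9 of 19 glycolysis genes fell in all, 6 without MSC replicate 3, 5 without ALI replicate 1, 4 without ALI replicate 3 or MSC replicate 1, and 14 without MSC replicate 2. Gapdh, with many close copies in the genome, was listed at 4.53, 4.36 and 3.98 FPKM in ALI and at 2.42, 2.74 and 2.80 in MSC, a level that is uncertain for that reason. Hif1a, the oxygen-labile subunit of the hypoxia factor, was at 55.3, 49.6 and 63.8 FPKM in ALI and at 24.3, 27.3 and 26.9 in MSC (-1.15 ± 0.15 SE, adjusted p = 0.00111). Of 24 hypoxia targets 7 fell (7 without MSC replicate 3, 4 without ALI replicate 1, and 3 without ALI replicate 3 or MSC replicate 1), among them Ankrd37 by 1.67. Vegfa, a target that alveolar type 1 cells also make, was at 181, 162 and 162 FPKM in ALI and at 237, 156 and 210.4 in MSC, with overlap (adjusted p = 0.301). Of 20 oxidative phosphorylation genes 1 fell, near the background share. It was Cycs (edgeR adjusted p = 0.0492), which lost its call without any 1 of the 6 libraries (0.0566 to 0.148).

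Of 14 genes of endothelial adhesion and activation, 7 fell (6 without MSC replicate 3), against 5.68% of all tested genes. Those that fell include a gene that is also on the neutrophil and acute phase lists, so the count does not cover endothelial transcripts alone. Selp, P-selectin, which catches rolling leukocytes (chromosome 1, 164115264 to 164150026), was at 18.6, 16.5 and 28.8 FPKM in ALI and at 2.78, 2.63 and 2.48 in MSC. The MSC values lay within a narrow band well under the ALI values (log2 fold change -3.06 ± 0.44 SE, edgeR adjusted p = 0.00182, 0.00691 without MSC replicate 3). Sele, E-selectin, was at 3.66, 4.55 and 6.28 FPKM in ALI and at 0.650, 0.770 and 0.840 in MSC (-2.72 ± 0.48 SE, adjusted p = 0.00482). Vcam1 stood at 15.9 ± 1.85 FPKM in ALI and 13.8 ± 1.14 in MSC (SD, n = 3 each) and did not pass (adjusted p = 0.481). P-selectin is also carried by platelets, and of 10 platelet genes 1 fell (Pf4) and 9 did not pass, with a list median of 0.64. Pf4 kept its call in 1 of the 6 fits that left out a library, that without MSC replicate 2.

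Thbd, thrombomodulin, the endothelial brake on thrombin (chromosome 2, 148404466 to 148408188), was at 44.8, 52.3 and 52.2 FPKM in ALI and at 100.7, 94.2 and 94.9 in MSC, with a Control mean of 138. No MSC library came near the ALI range (log2 fold change 0.91 ± 0.10 SE, edgeR adjusted p = 0.000446, 0.00123 without MSC replicate 3). Of 20 genes shared by all endothelium 5 rose (6 without MSC replicate 3) against a background of 5.46%, among them the angiopoietin receptor Tek, at 24.99, 34.1 and 26.7 FPKM in ALI and 64.0, 44.2 and 39.8 in MSC (0.74 ± 0.16 SE, adjusted p = 0.0132). Tek lost its call without ALI replicate 1 or ALI replicate 3 (adjusted p = 0.0644 and 0.0569), where the list count was 3, and the count was 2 in the fit to these 6 libraries alone. The junction gene Cldn5 and the adhesion gene Cdh5 did not pass. Of 12 aerocyte genes (the capillary cells of gas exchange) 6 rose (also 6 without MSC replicate 3), with a count of 2 without ALI replicate 1, ALI replicate 3 or MSC replicate 1. Ptprb, a phosphatase that acts on Tek, was at 18.5, 20.0 and 21.3 FPKM in ALI and at 37.1, 27.9 and 28.5 in MSC (0.59 ± 0.11 SE, adjusted p = 0.0055).

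Genes of BMP signalling, which keeps pulmonary endothelium quiescent, rose in 5 of 20 cases, against 5.46% of all tested genes. The count was 6 without MSC replicate 3 and 2 without ALI replicate 1, ALI replicate 3 or MSC replicate 1. Bmp6 was at 9.41, 8.82 and 9.04 FPKM in ALI and at 24.5, 12.9 and 16.3 in MSC, below the Control mean of 46.7 (log2 fold change 0.93 ± 0.18 SE, edgeR adjusted p = 0.00797). Smad9, a transcription factor of the pathway, was at 0.640, 0.790 and 0.780 FPKM in ALI and at 2.45, 1.28 and 2.30 in MSC (1.40 ± 0.25 SE, adjusted p = 0.00495). Both genes were higher in each MSC library than in any ALI library. The classical targets Id1 and Id3 did not pass, with log2 fold changes of -0.15 and -0.12. Of 22 vascular tone genes 8 rose and 3 fell, against 5.46% and 5.68% of all tested genes. Npr3, the clearance receptor of natriuretic peptides, rose by 1.40 (adjusted p = 0.00798), and adrenomedullin (Adm) fell by 1.40 (adjusted p = 0.0206). The count of tone genes that rose was 7 without MSC replicate 3, 1 without ALI replicate 1 or MSC replicate 1, 2 without ALI replicate 3 and 4 without ALI replicate 2. The count that fell was 2 without MSC replicate 3 and 0 without ALI replicate 1, ALI replicate 3 or MSC replicate 1, where Adm lost its call (adjusted p = 0.0588 to 0.0849).

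Alveolar fibroblasts gave the highest share of members that rose among the 30 lists plotted, 9 of 14, with 9 also without MSC replicate 3 and a median of 0.67. Itga8, an integrin chain of these cells (chromosome 2, 12106632 to 12301922), was at 8.44, 12.4 and 8.42 FPKM in ALI and at 30.0, 26.8 and 24.1 in MSC, with 42.8 ± 1.87 in Control (SD, n = 3; log2 fold change 1.42 ± 0.15 SE, edgeR adjusted p = 0.000374). Tcf21, a transcription factor of lung mesenchyme, was at 14.0, 20.7 and 12.95 FPKM in ALI and at 33.4, 50.4 and 28.5 in MSC (1.19 ± 0.23 SE, adjusted p = 0.00856). Slc7a10, an amino acid transporter, was at 6.46, 9.29 and 6.07 FPKM in ALI and at 26.1, 16.7 and 14.9 in MSC (1.35 ± 0.21 SE, adjusted p = 0.00238). Fgfr4 rose by 1.43 and the heparan sulphate proteoglycan Gpc3 by 0.83. Inmt, a methyltransferase and one of the most abundant fibroblast transcripts of mouse lung, was at 189, 319 and 157 FPKM in ALI and at 798, 509.9 and 534 in MSC (1.42 ± 0.29 SE, adjusted p = 0.011, 0.054 without ALI replicate 1). Pdgfra, which marks fibroblasts broadly, stood at 32.7 ± 3.28 FPKM in ALI and 33.0 ± 1.84 in MSC (SD, n = 3 each, adjusted p = 0.881).

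Matrix and collagen genes were called higher more often than lower, while proteases and their inhibitors were called in both directions. The fibulin Fbln5, which guides elastic fibre assembly, was at 9.95, 11.1 and 9.64 FPKM in ALI and at 20.7, 15.2 and 21.7 in MSC (log2 fold change 0.86 ± 0.11 SE, edgeR adjusted p = 0.00111). Fbln2 and Fbln1 rose by 1.71 and 1.21. Elastin (Eln) was at 31.9, 57.6 and 37.3 FPKM in ALI and at 68.9, 176 and 148 in MSC, above its Control mean of 26.1 in each MSC library (1.59 ± 0.33 SE, adjusted p = 0.0114; 0.0548 without ALI replicate 1 and 0.0519 without ALI replicate 3). Of 22 matrix and crosslinking genes 8 rose and 2 fell, against 5.46% and 5.68% of all tested genes. The falls were Has2, which makes hyaluronan, and Tnfaip6, which modifies it. The count that rose was 8 without MSC replicate 3, 4 without ALI replicate 1 and 5 without ALI replicate 3 or MSC replicate 2. Has2 lost its call without ALI replicate 3 or MSC replicate 1 (adjusted p = 0.0522 and 0.0566) and Tnfaip6 without ALI replicate 3 (0.0566), while 4 fell without MSC replicate 2. Of 21 collagens 7 rose and 1 fell, the fall being near the background share. The counts were 6 and 0 without MSC replicate 3. The count that rose was 2 without ALI replicate 1 and 4 without ALI replicate 3, MSC replicate 1 or MSC replicate 2. The abundant fibrillar chain Col3a1 overlapped between groups at 112 ± 19.0 FPKM in ALI and 108 ± 40.3 in MSC (SD, n = 3 each). Among the proteases, the stromelysin gene Mmp3 was at 60.0, 53.3 and 83.8 FPKM in ALI and at 15.5, 20.4 and 14.1 in MSC (-2.03 ± 0.19 SE, adjusted p = 0.000158). Timp1, a protease inhibitor, fell by 1.55 while Timp2 rose by 0.51, and of 21 proteases and inhibitors 8 fell and 5 rose, with the same counts without MSC replicate 3 and 3 higher without ALI replicate 3.

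Lists of smooth muscle, pericytes and mesothelium, the lining of the lung surface, also held genes that rose, with median log2 fold changes of 0.60, 0.38 and 0.87 (0.59, 0.44 and 0.87 without MSC replicate 3). Of 17 smooth muscle genes 5 rose (6 without MSC replicate 3, 1 without ALI replicate 1 or ALI replicate 2, 2 without MSC replicate 1 and 3 without MSC replicate 2). Mylk, the kinase that starts contraction, was at 14.3, 16.1 and 14.8 FPKM in ALI and at 22.4, 19.3 and 21.6 in MSC (log2 fold change 0.44 ± 0.07 SE, edgeR adjusted p = 0.00349). Acta2, smooth muscle actin, was at 35.8, 24.3 and 42.4 FPKM in ALI and at 47.2, 81.7 and 36.0 in MSC, with MSC replicate 3 inside the ALI range (adjusted p = 0.155, and 0.0493 without MSC replicate 3). Pericyte genes rose in 4 of 12 cases and mesothelial genes in 3 of 10, with 4 and 2 without MSC replicate 3. The pericyte count was 2 without ALI replicate 1, ALI replicate 3 or MSC replicate 1. The mesothelial count was 0 without ALI replicate 1 and 1 without ALI replicate 2.

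**Figure D4:**
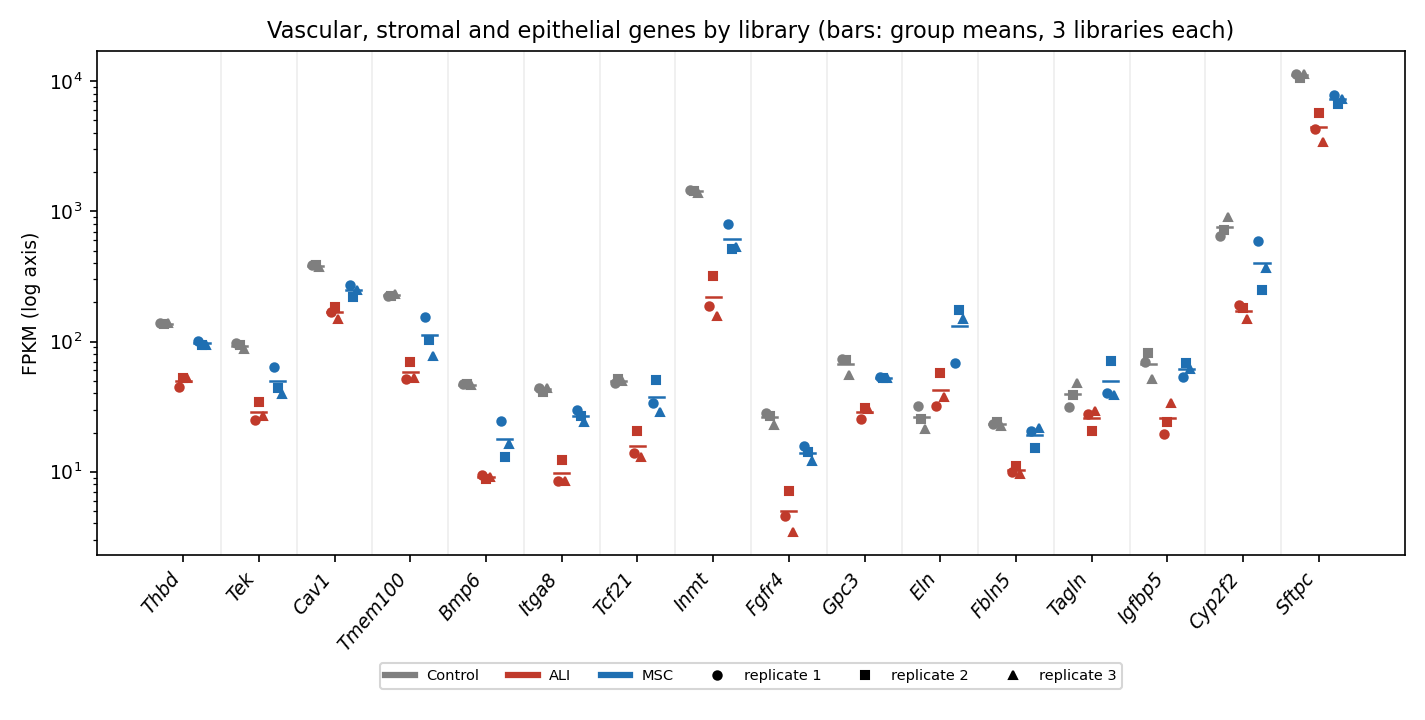
Points are single libraries (FPKM, log axis) of Control, ALI and MSC for 16 vascular, stromal and epithelial genes, with the shape giving the replicate number and the short bar the group mean. In each gene the MSC mean lies above the ALI mean, and it lies below the Control mean in 14 of them, the exceptions being elastin (Eln) and Tagln. The 16 were chosen from genes called higher, so the rise over ALI was fixed by the choice. Genes that fell or did not pass, such as Pdpn and Pdgfra, are not shown.

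Genes of the alveolar epithelium were called in both directions, and the counts depended on the library left out. Of 17 type 2 cell genes 2 rose, Sftpc and the complement gene Hc, and 1 fell, Il33. The shares of all tested genes were 5.46% and 5.68%, so the 1 fall is near the background. Sftpc, surfactant protein C (chromosome 14, 70520949 to 70524081), was at 4268, 5658 and 3412 FPKM in ALI and at 7911, 6704 and 7355 in MSC, without overlap (log2 fold change 0.67 ± 0.17 SE, edgeR adjusted p = 0.0274). Its call was lost without ALI replicate 1, ALI replicate 3, MSC replicate 1 or MSC replicate 3 (adjusted p = 0.0512 to 0.0989). Sftpd, a surfactant protein of host defence, went the other way at 871, 996 and 665 FPKM in ALI and 528, 587 and 769.8 in MSC, with MSC replicate 3 inside the ALI range (adjusted p = 0.0823, and 0.0207 without it). Without MSC replicate 3, 1 type 2 gene rose and 4 fell, and 1 rose without ALI replicate 1, ALI replicate 3 or MSC replicate 1. Hc and Il33 kept their calls in all 6 fits that left out a library. Of 16 type 1 cell genes 3 rose and 1 fell (2 and 1 without MSC replicate 3). The count that rose was 1 without ALI replicate 1, ALI replicate 3 or MSC replicate 1, and 10 without MSC replicate 2. Rtkn2, a gene of type 1 cells, rose from 20.5 ± 3.43 to 36.2 ± 6.29 FPKM and Pdpn, podoplanin, fell from 149 ± 11.4 to 111 ± 8.21 (SD, n = 3 each, adjusted p = 0.00748 and 0.0115; Pdpn 0.0515 without MSC replicate 1).

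In the airways, 4 of 18 club and goblet cell genes rose (2 without MSC replicate 3, ALI replicate 1, ALI replicate 2 or MSC replicate 1, and 1 without ALI replicate 3). Aldh1a1, a retinal-oxidising enzyme, was at 79.1, 83.4 and 87.7 FPKM in ALI and at 175, 150.2 and 129.8 in MSC (log2 fold change 0.81 ± 0.13 SE, edgeR adjusted p = 0.00348). The club cell cytochrome Cyp2f2 was at 190.4, 180.1 and 148 FPKM in ALI and at 590.2, 249 and 368 in MSC (1.17 ± 0.26 SE, adjusted p = 0.0138; 0.062 without ALI replicate 3). Scgb1a1, the main secretory protein of club cells, had no overlap at 7170 to 8386 FPKM in ALI and 9587 to 15258 in MSC but missed the threshold (adjusted p = 0.0948). Of 17 ciliated cell genes 1 rose, Tppp3 (also 1 without MSC replicate 3), near the background share, and it lost its call without ALI replicate 2, ALI replicate 3 or MSC replicate 1 (adjusted p = 0.058 to 0.0895).

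Alveolar macrophage genes depended on the library. With all 6 libraries 6 of 19 rose (median 1.10), and without MSC replicate 3 the count was 12 (median 1.36), while it was 1 without ALI replicate 1 or ALI replicate 3 and 3 without ALI replicate 2. As the mean over members of log2 CPM minus the ALI mean, the list stood at 1.27, 2.32 and -0.69 in MSC replicates 1, 2 and 3, at -0.11 to 0.08 in ALI and at 1.98 to 2.05 in Control. Ear2, a ribonuclease of these cells, was at 2.86, 4.75 and 5.23 FPKM in ALI and at 34.0, 83.8 and 1.17 in MSC (edgeR adjusted p = 0.0502, and 0.000756 without MSC replicate 3). MSC replicates 1 and 2 were above and MSC replicate 3 below every ALI library. Chil3, a chitinase-like protein, showed the same order at 29.6, 24.5 and 33.9 FPKM in ALI and 172, 552 and 12.0 in MSC. It was called with all libraries (log2 fold change 3.02, adjusted p = 0.0453) but not without any 1 of the other 5 libraries (adjusted p = 0.0796 to 0.164). Csf2ra, a receptor chain for GM-CSF, was at 0 to 0.210 FPKM in ALI, at 7.02 and 15.6 in MSC replicates 1 and 2 and listed at 0 in MSC replicate 3. Some defining genes stayed low in every MSC library: Siglecf was at 0.890, 2.82 and 0.610 FPKM against 6.48 in Control, and Fabp1 at 0.260, 0.520 and 0 against 11.2. Atp6v0d2, named above, was higher in MSC replicate 3 than in any ALI library. Ear1 and Ear2 are near-identical copies, and their single values are uncertain.

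Plasma cell genes showed the opposite order. Igha, the constant region of IgA, was at 67.0, 74.6 and 180.2 FPKM in ALI and at 20.8, 24.0 and 818 in MSC. MSC replicates 1 and 2 were below every ALI library and MSC replicate 3 above all, so that the log2 fold change was 1.39 with it (edgeR adjusted p = 0.477) and -2.31 without it (adjusted p = 0.0223). Jchain, which joins IgA and IgM, was at 55.0, 66.3 and 122 FPKM in ALI and at 22.6, 32.9 and 646 in MSC, and Igkc, the kappa light chain, at 670.2, 623 and 1562 in ALI and 235, 369 and 5488 in MSC. Of 14 plasma cell genes 0 were called in edgeR with all libraries (1 higher at an unadjusted p under 0.05 and 1 higher in DESeq2), and 6 fell without MSC replicate 3, where the list median went from 1.11 to -1.05. Fcer2a, the low-affinity IgE receptor of B cells, fell with all libraries, from 33.8, 31.7 and 31.4 FPKM in ALI to 10.8, 7.36 and 12.6 in MSC (-1.70 ± 0.32 SE, adjusted p = 0.00612), and was the 1 gene of 13 on the B cell list to do so (2 fell without MSC replicate 3).

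MSC replicate 3 stood apart in genes of neighbouring tissues too. The adipose list was at 1.88, 1.36 and -1.86 in MSC replicates 1, 2 and 3 (mean log2 CPM minus the ALI mean) against -0.69 to 0.89 in ALI, and the cardiac muscle list at 0.87, 0.70 and -1.74 against -0.19 to 0.33. No adipose gene of 8 and no cardiac gene of 11 was called in edgeR (0 and 2 at an unadjusted p under 0.05, 0 and 0 in DESeq2), and 1 adipose and 0 cardiac genes were called without MSC replicate 3. That 1 adipose gene was Cidec. Both Cidec and Fabp4 are also on the alveolar macrophage list, so the adipose list does not cover adipose transcripts alone. The adipokine Adipoq was at 2.11, 1.04 and 0 FPKM in MSC, and the atrial myosin chain Myl7 at 8.18, 8.61 and 0. Heat shock genes were at -0.22, -0.15 and 0.73, and the chaperone Hspa1a was at 11.2, 9.46 and 82.0 FPKM in MSC against 13.3 to 22.0 in ALI. The part of these lists in the results above was not tested. The neutrophil list was at -2.34, -1.91 and -2.14 and the NF-kB list at -1.12, -0.87 and -0.95 in the same MSC libraries, so for these MSC replicate 3 lay between the others.

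**Figure D5:**
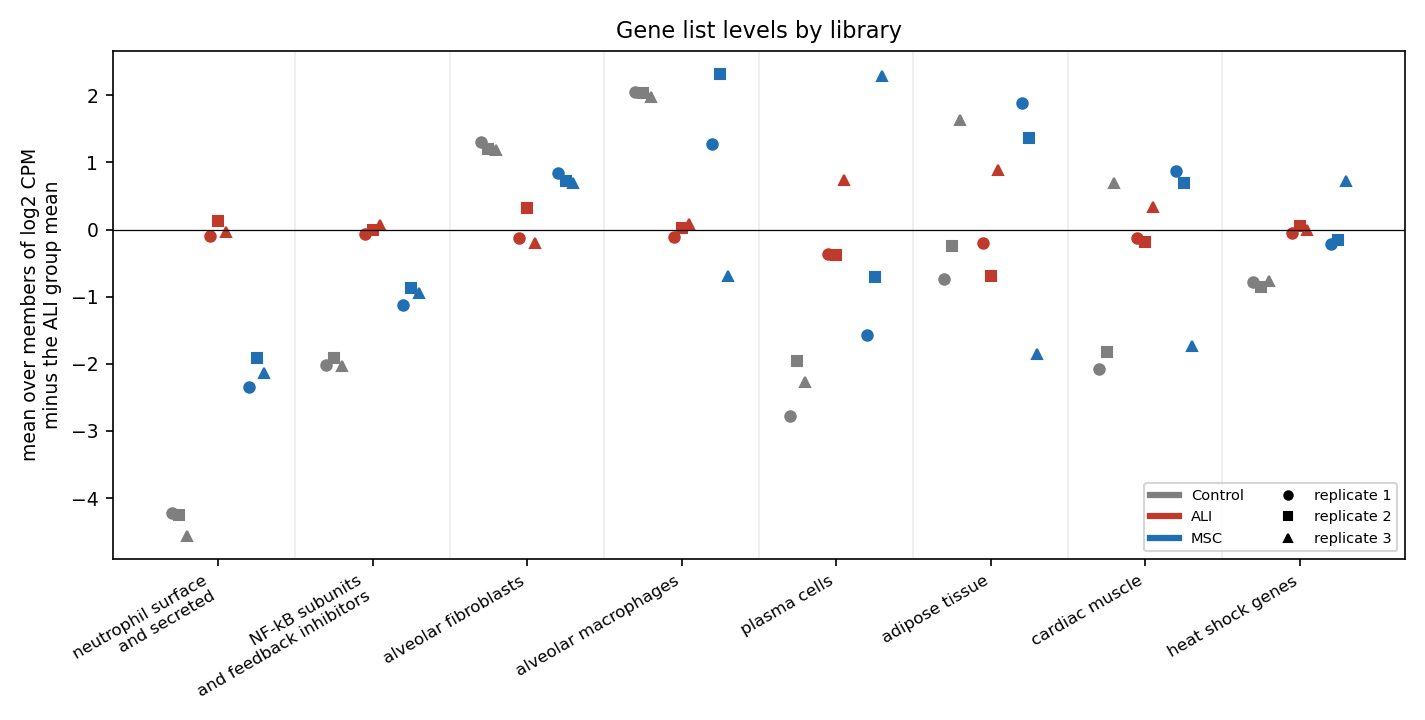
Points are single libraries of Control, ALI and MSC for 8 gene lists, on the y axis as the mean over members of log2 CPM minus the ALI group mean. For neutrophil, NF-kB and fibroblast genes the 3 MSC libraries lie together, and for alveolar macrophage, plasma cell, adipose, cardiac and heat shock genes MSC replicate 3 (triangle) lies away from MSC replicates 1 and 2.

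Enzymes of redox and arginine metabolism and signals of cell clearance were read last. Nfe2l2, which encodes the antioxidant factor NRF2, was at 71.4, 67.8 and 75.9 FPKM in ALI and at 55.5, 54.5 and 56.1 in MSC (log2 fold change -0.42 ± 0.07 SE, edgeR adjusted p = 0.00428). Its target Slc7a11, the cystine importer, was at 8.94, 11.8 and 8.82 FPKM in ALI and at 2.04, 4.07 and 1.28 in MSC, against 0.127 in Control (-2.04 ± 0.41 SE, adjusted p = 0.00907). Of 20 NRF2 antioxidant genes 8 fell and 1 rose (7 and 1 without MSC replicate 3). Arg2, an arginase of mitochondria, was at 64.2, 75.2 and 62.3 FPKM in ALI and at 24.8, 40.4 and 23.2 in MSC (-1.24 ± 0.20 SE, adjusted p = 0.00285). The groups were separate in these 3 genes. Gas6, a bridge between dying cells and the receptors that engulf them, went the other way, at 43.6, 48.5 and 48.0 FPKM in ALI and 112, 94.7 and 93.4 in MSC, below its Control mean of 149 (1.05 ± 0.14 SE, adjusted p = 0.00102). Mfge8, a second bridging protein, rose by 0.38 (adjusted p = 0.00456). Of 20 genes of resolution and clearance 4 rose and 2 fell, against 5.46% and 5.68% of all tested genes. The counts were 7 and 0 without MSC replicate 3. Chil3 and Mrc1 are also on the alveolar macrophage list. The count that rose was 2 without ALI replicate 1 or ALI replicate 2, and the count that fell was 0 without any 1 library other than MSC replicate 2, where it was 1.

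Surface markers and secreted factors of mesenchymal stromal cells were also read, without assuming that the labels mean these cells. Of 13 common surface markers, which cells of lung can express too, 1 rose (Lepr) and 1 fell (Cd44), near the background. Lepr lost its call without ALI replicate 1 or ALI replicate 3 (adjusted p = 0.0648 and 0.0527). Nt5e, which encodes CD73, stood at 10.9 ± 1.03 FPKM in ALI and 13.2 ± 1.66 in MSC (SD, n = 3 each, edgeR adjusted p = 0.199), and Pdgfrb at 13.6 ± 1.82 and 14.3 ± 2.25 (adjusted p = 0.93). Of 20 genes for factors that mesenchymal stromal cells are known to secrete or use, 10 fell, also 10 without MSC replicate 3. Ptgs2, which makes prostaglandins, was at 14.5, 15.1 and 20.9 FPKM in ALI and at 6.02, 3.57 and 7.60 in MSC (log2 fold change -1.60 ± 0.24 SE, edgeR adjusted p = 0.00193). Nos2 and Lif fell (log2 fold changes of -2.02 and -2.07), while Hgf and Vegfa did not pass. The labels do not say from which species the cells came, and sequences of another species were not analysed here.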

How the data were processed

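Lung RNA was sequenced as strand-marked, poly(A)-selected paired-end libraries, per the labels' protocols. The deposited table gives whole-number counts and FPKM values for 38349 genes in each of 12 libraries, per the file headers. Per the submitters' processing notes, the genome build was GRCm38 and the tools were HISAT2 2.0.4, StringTie 1.3.4d and cutadapt 1.9, with edgeR and DESeq2. Which of them made the counts, and with which strand setting, is not given in the sources used here, so values of overlapping, antisense and near-identical genes (stefin, Saa, Mrgpra2, Serpina3, Orm, Ear, Gbp and immunoglobulin genes among them) are uncertain.

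Counts were tested with edgeR 4.0.16 (R 4.3.3), the quasi-likelihood F test with TMM scaling, 1 mean per group over all 12 libraries and genes passing filterByExpr on the 3 ALI and 3 MSC libraries. A gene was called at a Benjamini-Hochberg adjusted p under 0.05, adjusted over all 21464 genes. The authors' deposited FPKM values are printed as levels. The fit was also run on simulated data drawn with its own estimates of spread. No simulated library was made to stand apart as MSC replicate 3 did, so that run cannot show whether the calls hold here. Totals ran from 53083002 to 70209229 counts, and the median coefficient of biological variation was 0.17, so the spread between libraries, not depth, limits precision for most genes. Alternatives were DESeq2 1.42.0, other scaling, filter, libraries, weights (limma 3.58.1 voom), limma on log2 FPKM, a replicate block, and leaving out each library. Gene positions come from GENCODE M21 (GRCm38) by Ensembl ID (35571 of the IDs matched, 2778 did not), because those in the table matched that annotation for only 628 genes. Promoters come from RefSeq.

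The members and lists were chosen with earlier results of these data known. Named genes were the 15 largest rises and 15 largest falls among called genes that reached a mean of 10 FPKM in either group, with no overlap and a call in each of the 6 leave-one-out fits, without predicted genes, pseudogenes and receptor segments. From each of 88 lists, up to 4 called members of smallest p, the 2 most abundant uncalled members and up to 2 whose call changed without MSC replicate 3 could also be named, as could the 10 most abundant genes. Chosen after their values were seen were Acta2, Adipoq, Adm, C1qa, C1qb, Ccl21a, Col3a1, Csf2ra, Cxcl3, Cyld, Ear1, Eln, Fabp1, Fpr1, Fth1, Gbp4, Gbp7, Gpc3, Has2, Hgf, Hspa1a, Id1, Iigp1, Il11ra1, Il1b, Inmt, Isg15, Klf4, Lifr, Ltf, Ly6c2, Ly6g, Mki67, Myl7, Nfkb2, Nt5e, Pdgfra, Rel, S100a9, Slc11a1, Socs1, Socs2, Timp1, Tlr4, Tnfaip3, Tnfaip6, Tnip1 and Vcam1.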

Additional observations from a re-analysis of the deposited data

How the results depend on the processing

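The count of called genes was 2391, with 1172 higher and 1219 lower. It was 3588 with DESeq2 (1815 higher), 3762 with voom and sample quality weights (1771 higher, 1991 lower) and 1221 in a fit to the 6 libraries alone (425 higher, 796 lower). In that last fit 34.8% of calls were higher, against 49.0%, and with limma on log2(FPKM + 0.1) 55.2% were. Leaving out 1 library at a time gave 1156 to 3038 calls, 483 to 1491 higher and 637 to 1547 lower, the most without MSC replicate 2 and the fewest in total without ALI replicate 1. With the replicate block, which treats libraries of the same number as pairs, 2208 genes were called. Same-numbered libraries did not deviate together (correlations -0.0416, 0.0353 and 0.00857), so the numbers were not taken as pairs. Of the 138 called genes named in the text, 109 kept their calls when each of the 6 libraries was left out in turn. The 15 largest rises and 15 largest falls were named only if they did so, and part of that count was therefore fixed by the choice. Among all 2391 called genes, 933 kept their calls in each of those 6 fits. The log2 fold changes of Igha, Igkc and Jchain reversed without MSC replicate 3, and over the 6 fits that left out a library they ran from -2.31 to 1.99, from -1.71 to 1.61 and from -1.60 to 2.03. The cause was not tested for any of these. Depth was high in each library, and the spread between 3 libraries in each of the 4 groups sets which changes could be called.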
